A study of Mus musculus with 26 samples.

Results

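Tigit and the 6 costimulatory and inhibitory genes that lie near it on mouse chromosome 16 (Cd86, Cd80, Btla, Cd96, Nectin3 and Cd47) were followed through bulk RNA-seq of lung group 2 innate lymphoid cells (ILC2s). The 7 genes were picked by symbol from the 55401 gene identifiers of both count tables, in 26 libraries. The cultured cells came from 5 CC030 mice, a Collaborative Cross recombinant inbred strain; each mouse gave cells to AR420626 (an agonist of the short-chain fatty acid receptor FFAR3, 10 µM) and to vehicle (DMSO), each harvested at day 2 and day 6, so all 4 cultured groups had n = 5. Every well was started with 3000 cells and carried human IL-2 at 100 U/mL together with TSLP and IL-33, each at 10 ng/mL, so the vehicle cells were stimulated as well. A separate experiment sequenced uncultured ILC2s from naive CC030 and naive C57BL/6J mice, n = 3 each. All mice were female, and the gates differed between the experiments: ST2 was used to sort the cells for culture, CD25 and ICOS to sort the naive cells.

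TIGIT and CD96 are receptors on T, NK and innate lymphoid cells that bind the poliovirus receptor PVR and nectin family members, which the activating receptor CD226 also binds; TIGIT carries an inhibitory tail. NECTIN3 is an adhesion molecule of the same family as those ligands. BTLA is an inhibitory receptor for the TNF receptor family member HVEM, encoded by Tnfrsf14. CD80 and CD86 are the B7 ligands of the costimulatory receptor CD28 and the inhibitory receptor CTLA-4, best known on antigen-presenting cells, and CD47 is a widely expressed surface protein whose binding to SIRPA on phagocytes restrains engulfment.

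On GRCm38, Cd86 occupies chr16:36603869-36666081 on the minus strand and Cd80 chr16:38455561-38496335 on the plus strand. Tigit lies at chr16:43648867-43664146 (minus strand, 919 exonic bases, 1 annotated transcript), with Btla at chr16:45224315-45257670 (plus), Cd96 at chr16:46035657-46120251 (minus), Nectin3 at chr16:46387706-46498525 (minus) and Cd47 at chr16:49800533-49915010 (plus). None of the 7 overlaps another annotated gene. The 250 bases before the RefSeq start site (GRCm38.p6) are shown for Tigit, the gene that differed most with AR420626, and for its receptor relative Cd96, which did not pass the test. Both stand 5′ to 3′ on the strand of the gene, and capitals mark matches to AGATAA (bound by GATA factors) or to TGTGGT (bound by RUNX factors), on either strand.
Tigit, chr16:43664185-43664434, minus strand: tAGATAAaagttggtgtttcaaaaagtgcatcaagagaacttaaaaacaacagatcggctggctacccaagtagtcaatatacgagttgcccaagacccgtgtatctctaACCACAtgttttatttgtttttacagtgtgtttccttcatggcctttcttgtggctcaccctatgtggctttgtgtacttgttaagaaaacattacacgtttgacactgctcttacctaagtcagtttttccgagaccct
Cd96, chr16:46120249-46120498, minus strand: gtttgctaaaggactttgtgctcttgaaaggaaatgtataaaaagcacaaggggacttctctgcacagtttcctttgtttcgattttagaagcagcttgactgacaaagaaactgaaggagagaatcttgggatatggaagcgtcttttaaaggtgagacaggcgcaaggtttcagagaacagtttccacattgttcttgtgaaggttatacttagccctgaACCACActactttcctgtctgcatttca
The Tigit window held AGATAA at bases 249 to 244 before the start and TGTGGT, on the opposite strand, at bases 140 to 135. The Cd96 window held TGTGGT on the opposite strand at bases 28 to 23. Such matches are common: of the 32851 RefSeq promoter windows of this length, 9.99% held AGATAA and 14.0% held TGTGGT. Neither window held TGATAA, another form bound by GATA factors (7.94% of all windows), TGANTCA for AP-1 (6.75%), TGACGT for CREB (6.47%) or GGGNNTTCC for NF-kB (4.98%), each searched on both strands. Further forms were not searched.

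How far a row of the tables followed its gene was checked first, since CC030 reads had been placed on an mm9 pseudogenome and C57BL/6J reads on mm10. Across the 681 chromosome 16 genes with a count in naive C57BL/6J, mean CPM (counts scaled to a common library size) per exonic kilobase correlated with those of naive C57BL/6J at Spearman rho 0.61 in AR420626 day 2, 0.55 in vehicle day 2, 0.72 in AR420626 day 6 and 0.76 in vehicle day 6. On the other 19 chromosomes examined, rho ran from -0.00003 to 0.233 in AR420626 day 6 and from -0.0098 to 0.218 in vehicle day 6. Within 5 Mb on each side of Tigit, rho over 48 genes was 0.76 in AR420626 day 6 and 0.73 in vehicle day 6. In naive CC030 it was -0.19 in that window and 0.07 on the whole of chromosome 16. In windows of the same width around Cd86, Cd80, Btla, Cd96 and Nectin3, rho ran from 0.70 to 0.82 at day 6. It was lowest around Cd47 (36 genes), at 0.53 in AR420626 day 6 and 0.58 in vehicle day 6. At day 2 it was 0.43 there with AR420626 and 0.31 with vehicle, so the Cd47 row is less sure than that of Tigit. Chromosome 16 thus stood apart from the others in the cultured libraries, and not in naive CC030. These correlations are descriptions across genes, which share libraries and are not replicates.

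**Figure D1:**
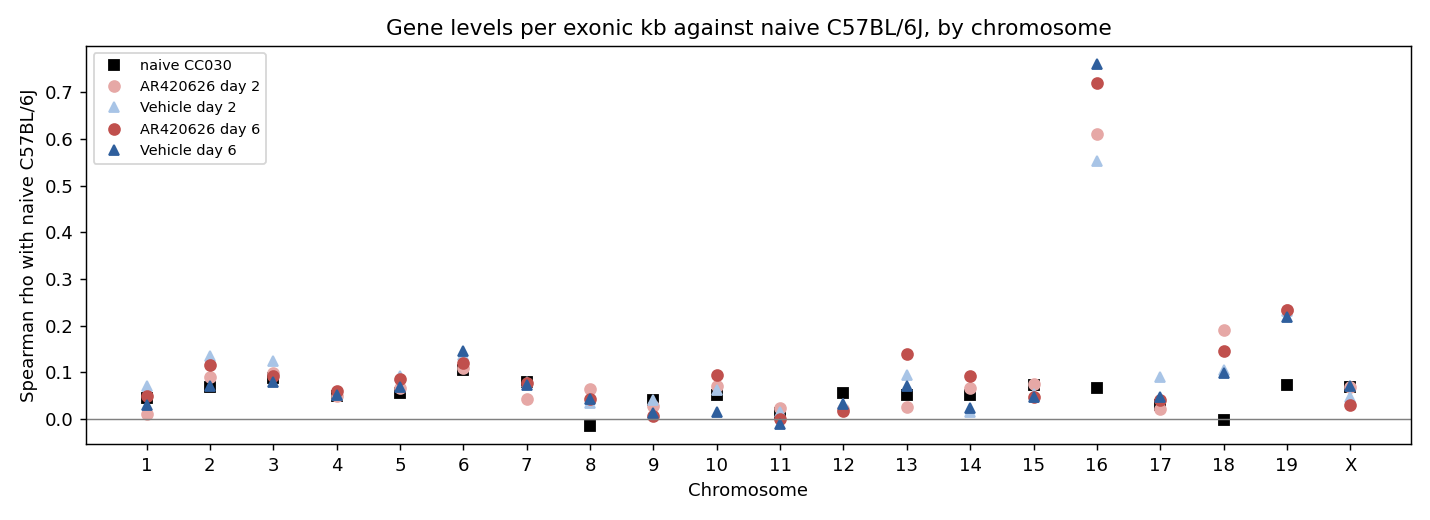
Spearman rho (vertical axis) between mean CPM per exonic kilobase in each group and in naive C57BL/6J, over genes with a count in naive C57BL/6J, for each chromosome (horizontal axis); each symbol is 1 group. The 4 cultured groups lie between 0.55 and 0.76 on chromosome 16, while naive CC030 is at 0.07 there.

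Depth bears on every value. Counts in genes totalled 1324595 to 1524751 per library in naive CC030, 13533363 to 15234305 in naive C57BL/6J and, in culture, 227445 (AR420626 day 2, mouse 4) to 5320028 (vehicle day 2, mouse 5). Of the uniquely placed reads of cultured libraries, 2.66% to 12.3% fell in genes. Libraries of naive CC030 had counts at 43527 to 46111 genes and those of naive C57BL/6J at 15946 to 16553. The 11 ILC2 markers, none of them on chromosome 16, summed to 166 to 199.9 CPM in naive CC030, 5634 to 6578 CPM in naive C57BL/6J and 79.4 to 497 CPM in culture. The ILC2 label could therefore be checked only in C57BL/6J. T cell markers summed to 1632 to 3119 CPM there (9 genes, Cd8a and Cd8b1 at 0) and the 7 NK cell and ILC1 markers were all at 0.

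A level that stray reads could give was read from the 218 protein-coding chromosome 16 genes with no count in any naive C57BL/6J library. Their median was 3.95 CPM per exonic kilobase in naive CC030, 2.25 in AR420626 day 2, 2.41 in vehicle day 2, 1.74 in AR420626 day 6 and 1.47 in vehicle day 6. At day 6 Cd47 stood far above this floor in both arms, and Tigit did with AR420626. Tigit averaged 377 CPM per kilobase in AR420626 day 6 and 20.2 in vehicle day 6, and Cd47 337 and 291. None of the 218 genes was as high as Tigit in AR420626 day 6, and 3 were in vehicle day 6. Cd96, Cd80 and Btla lay between 8.97 and 19.1 CPM per kilobase in AR420626 day 6 and between 12.8 and 23.1 in vehicle day 6. The vehicle day 6 level of Tigit lay inside that last range. At day 2 Tigit itself was near the floor, at 4.32 CPM per kilobase with AR420626 (17 of the 218 at or above it) and 3.82 with vehicle (37 at or above it). The mean levels of Cd86 and Nectin3 stayed within the range of these genes in every cultured group. At day 6 Cd86 was at 2.15 with AR420626, with 76 of the 218 at or above it, and at 1.13 with vehicle, with 141 at or above it. Nectin3 was at 2.31 with AR420626, with 69 at or above it, and at 1.73 with vehicle, with 85. Some of the 218 genes are expressed in culture (Gap43 reached 598 CPM per kilobase in vehicle day 6), so the medians are the steadier guide.

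**Figure D2:**
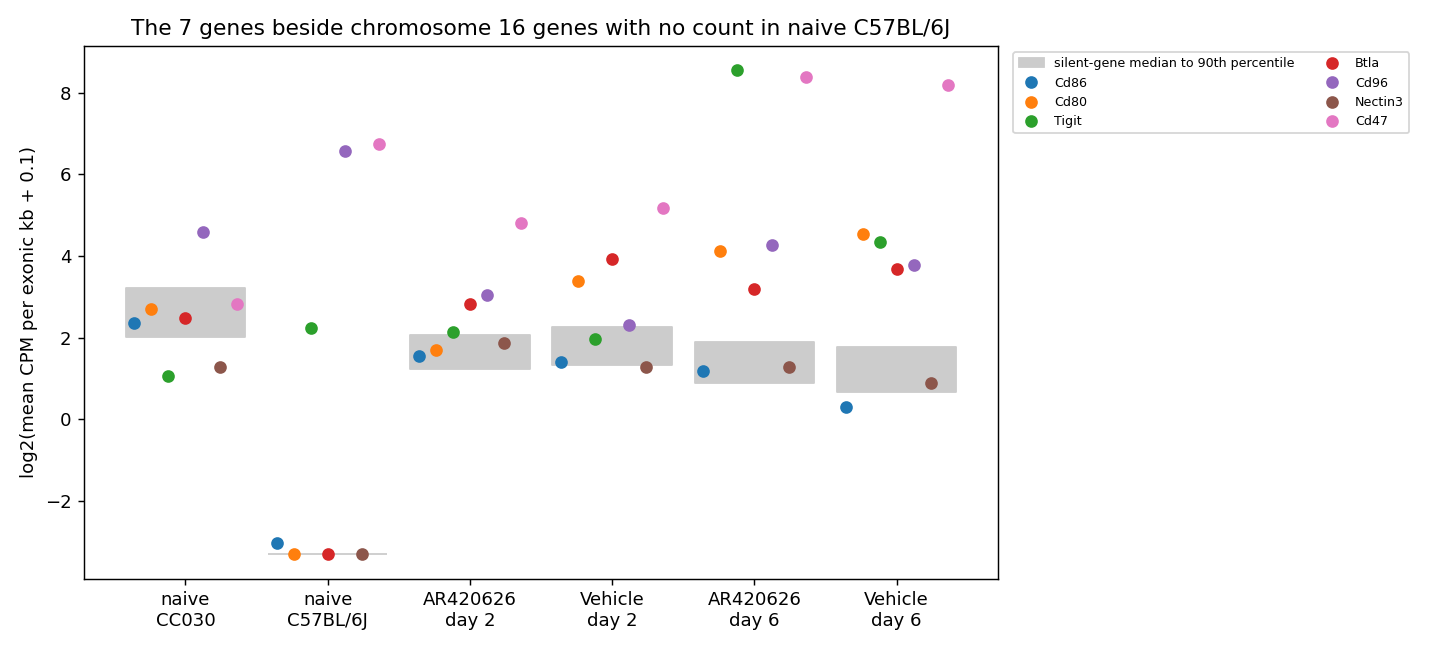
Mean level of each gene (log2 of CPM per exonic kilobase plus 0.1, vertical axis) in the 6 groups. Grey bands run from the median to the 90th percentile of the 218 chromosome 16 genes, members left out, with no count in naive C57BL/6J. Cd47 lies far above the band in both arms at day 6, and Tigit does with AR420626. In vehicle day 6 Tigit lies near Cd80. Cd86 and Nectin3 lie within or below the band in every cultured group.

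Of the 4 cultured groups, Tigit was highest in cells kept with AR420626 for 6 days. Its raw counts were 416, 214, 395, 227 and 297 in mice 1 to 5 with AR420626 at day 6, against 26, 22, 5, 34 and 15 in the same mice with vehicle. As CPM, on library sizes scaled by TMM factors, this was 483, 144, 510, 273 and 323 with AR420626 and 22.8, 18.4, 5.29, 31.5 and 14.7 with vehicle. The lowest AR420626 library was above the highest vehicle library, and the groups did not overlap. In bulk RNA, fewer cells with a transcript and less of it per cell cannot be told apart. Within mice the ratio of AR420626 to vehicle was 21.2, 7.84, 96.5, 8.67 and 22.0; the highest ratio belongs to mouse 3, whose vehicle library had 5 counts. The fitted log2 fold change was 4.35 (SE 0.33), and 4.05 to 4.79 when each mouse was left out in turn. Because the genes were chosen with this difference known, it is given as a description and carries no test. Of 470 chromosome 16 genes tested at day 6, Tigit had the highest log2 fold change. That rank uses the same known value and adds no support of its own.

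Of the 6 other genes, none that could be tested gave such a difference at day 6. With edgeR's quasi-likelihood test (mouse as block, Benjamini-Hochberg adjustment over all 9421 genes tested), none of the 5 of them that were tested passed, where 13.9% of all genes did (2.81% higher and 11.1% lower, and 4.26% and 25.7% of those on chromosome 16). Counting Tigit, 1 of 6 tested members passed, from which nothing is read. By DESeq2, 1 of the 5 passed (Cd47), and Cd47 also was the only one with an unadjusted p under 0.05 in edgeR. Cd86 fell below the filter on low counts, with 4 to 15 counts in AR420626 libraries and 0 to 12 in vehicle libraries. The median log2 fold change over the 6 tested members was 0.62, beside 0.00 over all genes tested and -0.36 over the chromosome 16 genes tested.

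Cd47 was among the more abundant of the 7 in both arms. It had 2062, 2218, 1764, 1916 and 1923 counts in AR420626 day 6 libraries, against 1874, 1394, 845, 4554 and 1243 in vehicle day 6 libraries. AR420626 libraries lay close together (1495 to 2395 CPM) inside the range of vehicle libraries (894 to 4220.0 CPM), and 4 of 5 mice were higher with AR420626. The log2 fold change was 0.62 (SE 0.24, adjusted p = 0.0901 in edgeR). The call depended on the scaling, on the count filter and on single mice. The log2 fold change was 1.07 (adjusted p = 0.0013) when libraries were scaled on chromosome 16 genes. With chromosome 16 genes tested alone it was 1.07 (adjusted p = 1.0e-06), and with at least 10 counts in every library 0.92 (adjusted p = 0.0046). By DESeq2 it was 0.69 (adjusted p = 0.0353). It was 0.78 (adjusted p = 0.0408) without mouse 2 and 0.90 (adjusted p = 0.0259) without mouse 4, whose vehicle library was the high one. Scaling on chromosome 16 moved the median of all genes tested to 0.44, against 0.00 on the main scaling, and the calls over all genes to 607 higher and 339 lower, against 265 and 1049.

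Cd96, the receptor that shares PVR with TIGIT, averaged 41.6 ± 18.9 CPM in AR420626 day 6 and 30.0 ± 20.1 CPM in vehicle day 6 (SD, n = 5 each). Its log2 fold change was 0.72 (SE 0.43, adjusted p = 0.287), and 3 of 5 mice were higher; it passed when chromosome 16 genes were tested alone (adjusted p = 0.0146). Cd80 averaged 63.9 ± 19.9 CPM with AR420626 and 85.7 ± 79.1 CPM with vehicle, a log2 fold change of 0.06 (SE 0.28, adjusted p = 0.913). The vehicle library of mouse 4 alone reached 226 CPM, where the other vehicle libraries held 38.1 to 63.1. Btla followed the same library: 124 CPM in vehicle mouse 4, against 13.7 to 42.9 CPM in the other vehicle libraries and 15.2 to 46.5 CPM in all AR420626 libraries, with a log2 fold change of 0.10 (SE 0.41, adjusted p = 0.899). Nectin3 had 14 to 53 counts with AR420626 and 12 to 36 with vehicle (log2 fold change 0.62, SE 0.39, adjusted p = 0.319). For Cd80 and Btla the sign turned when mouse was not a block or when low genes were kept, so neither has a direction here.

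**Figure D3:**
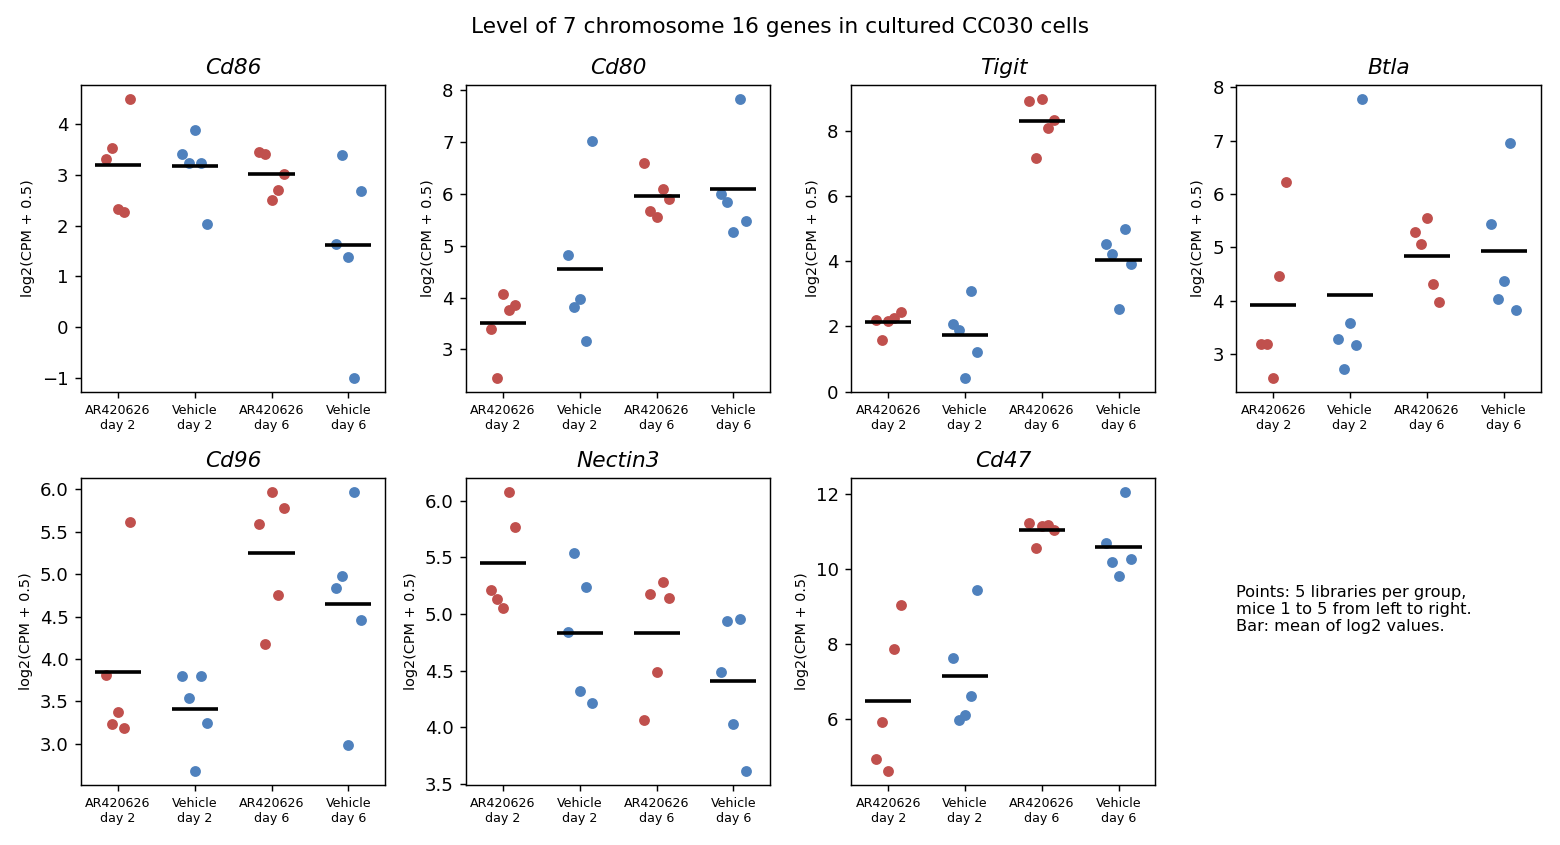
Level of each gene (log2 of CPM plus 0.5, vertical axis) in the 4 cultured groups; each point is 1 library, mice 1 to 5 run from left to right within a group, and the bar is the mean of the 5 log2 values. Tigit is separated between AR420626 and vehicle at day 6 only; the high vehicle libraries of mouse 5 at day 2 and mouse 4 at day 6 stand out for Btla, Cd80 and Cd47.

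The ratio of Tigit to Cd96, which does not depend on the scaling of a library, averaged 3.05 ± 0.32 on the log2 scale in AR420626 day 6 libraries and -0.60 ± 0.26 in vehicle day 6 libraries (SD, n = 5 each, pseudocount 0.5 on counts). The difference within mice was 3.65 ± 0.44, higher in 5 of 5, and is a description for the reason given above. At day 2 the ratio was -1.75 ± 0.89 with AR420626 and -1.77 ± 0.66 with vehicle, a difference of 0.03 ± 0.86 (exact sign permutation over 5 mice, two-sided p = 0.812, the smallest possible being 0.0625). The ratio of Cd86 to Cd80, the pair of B7 ligands, differed by 1.55 ± 2.30 at day 6 (exact two-sided p = 0.125, higher in 4 of 5 mice) and by 1.11 ± 2.98 at day 2 (exact two-sided p = 0.625, 3 of 5). The day 6 value leaned on mouse 4, whose vehicle library had 0 counts of Cd86: without that mouse it was 0.55, and without any 1 of the others 1.63 to 1.96. These are 3 tests of 1 family, and adjustment could only raise their p-values.

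At day 2 none of the genes differed detectably with AR420626. On simulated counts, 0% of 2-fold and 18.3% of 4-fold changes were called at day 2, against 57.6% and 97.2% at day 6. Changes of that size could therefore have been missed at day 2. Tigit had 9, 7, 9, 2 and 6 counts with AR420626 and 8, 9, 2, 16 and 2 with vehicle, which kept it below the filter; the groups overlapped throughout, at 2.50 to 4.92 CPM with AR420626 and 0.846 to 7.96 CPM with vehicle. Of the 6 members tested, 0 passed in edgeR, 0 had an unadjusted p under 0.05 and 0 passed by DESeq2. Here 0% of the 20865 genes tested passed in edgeR, although 396 had an unadjusted p under 0.05, and 15 passed by DESeq2. The fold change farthest from 0 was that of Cd80, at -1.19 (SE 0.61, adjusted p = 1.00): 9.95, 5.00, 16.2, 13.0 and 13.9 CPM with AR420626 against 27.8, 13.6, 15.2, 8.46 and 128 CPM with vehicle. The others lay between -0.77 (Cd47) and 0.53 (Nectin3).

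The difference between the AR420626 effect at day 6 and that at day 2 was 4.02 on the log2 scale for Tigit (SE 0.90), again a description. None of the other 6 passed in edgeR, with estimates of -0.20 to 1.20, none had an unadjusted p under 0.05 and none passed by DESeq2; 0.0519% of the 23141 genes tested passed in edgeR. This comparison shares its day 6 and day 2 libraries with those above.

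**Figure D4:**
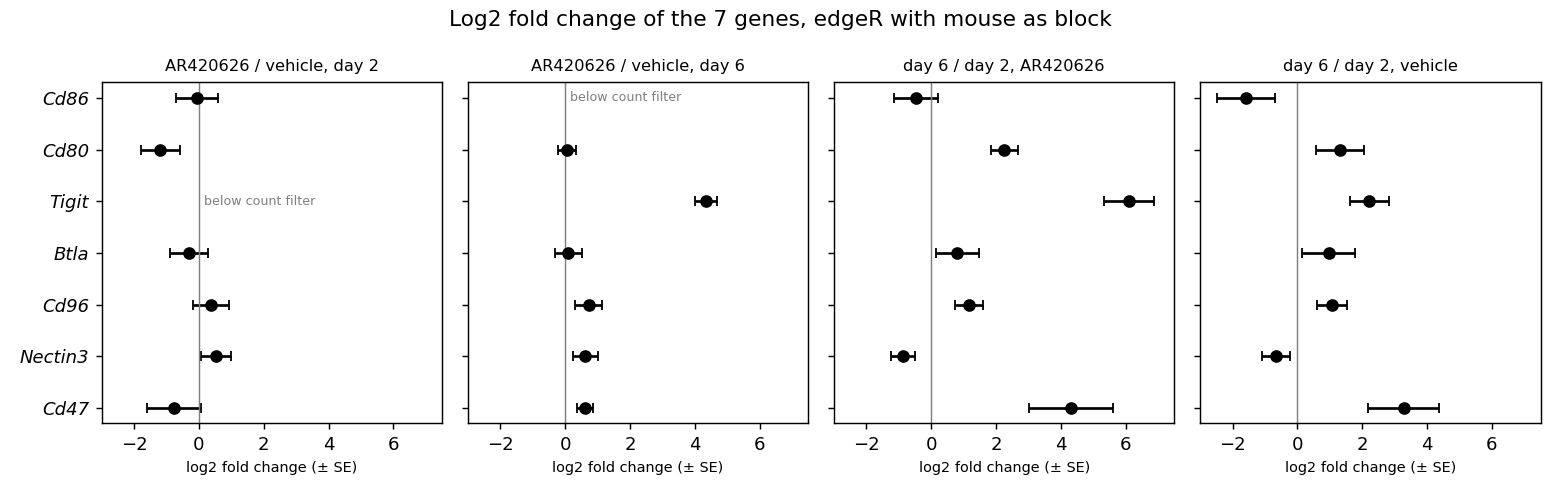
Log2 fold change (horizontal axis) with its standard error for each gene in 4 comparisons, from edgeR with mouse as block. With AR420626 over vehicle at day 6 Tigit lies at 4.35 and the other tested genes between 0.06 and 0.72; Tigit at day 2 and Cd86 at day 6 were below the count filter.

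Over culture time under vehicle, Cd47 rose and Tigit was higher at day 6 in every mouse. In vehicle cells Tigit was at 22.8, 18.4, 5.29, 31.5 and 14.7 CPM at day 6, against 3.70, 3.23, 0.846, 7.96 and 1.80 CPM at day 2, higher in 5 of 5 mice by 3.96-fold to 8.16-fold. The log2 fold change was 2.22 (SE 0.60), and 0.59 (SE 0.97) when scaled on chromosome 16 genes. It rests on the vehicle day 6 libraries, which were known when the genes were chosen, and is given without a test. That scaling matters here because chromosome 16 took 7.26% to 8.83% of counts in vehicle day 6 libraries and 1.36% to 3.94% in vehicle day 2 libraries. The median log2 fold change was 1.50 over the chromosome 16 genes tested and -0.54 over all genes tested, and -0.22 and -2.22 after scaling on chromosome 16.

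Cd47 was at 894 to 4220.0 CPM in vehicle day 6 libraries, against 62.4 to 698 CPM in vehicle day 2 libraries, and the groups did not overlap. Its log2 fold change was 3.28 (SE 1.10, adjusted p = 0.0412) and 1.61 (adjusted p = 0.0304) when scaled on chromosome 16. Mouse 5, with 698 CPM at day 2, carried much of the spread: without it the change was 4.24 (adjusted p = 0.000154), while leaving out any 1 of the other mice gave an adjusted p of 0.134 to 0.159. It also missed the threshold with DESeq2 size factors (adjusted p = 0.0506), with no block (0.0576), with chromosome 16 genes tested alone (1.61, 0.0646) and with no filter on low counts (0.11). Of the 6 genes other than Tigit, Cd47 alone passed as higher at day 6, where 13.0% of all genes tested and 36.3% of those on chromosome 16 did. Read against that share of chromosome 16, the count is not a result about these genes. Without mouse 5, 5 of 7 passed, Tigit counted, among them Cd80 (2.38, adjusted p = 0.000473) and Cd96 (1.50, adjusted p = 0.0099). Without that mouse 21.6% of all genes tested and 56.3% of those on chromosome 16 passed as higher, so nothing is read from that count either.

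Nectin3 and Cd86 went the other way in estimate, at -0.66 (SE 0.44, adjusted p = 0.274) and -1.59 (SE 0.89, adjusted p = 0.197). Cd96 was at 1.07 (SE 0.47, adjusted p = 0.111), Cd80 at 1.32 (SE 0.73, adjusted p = 0.194) and Btla at 0.96 (SE 0.82, adjusted p = 0.383). Scaled on chromosome 16 genes, Cd96, Cd80 and Btla had estimates below 0, and Nectin3 (-2.32, adjusted p = 0.0153) and Cd86 (-3.31, adjusted p = 0.0438) passed as lower at day 6. On that scaling 48.3% of all genes tested and 22.1% of those on chromosome 16 passed as lower, and the median over all genes was -2.22. Nectin3 and Cd86 also lay within the range of the silent chromosome 16 genes in vehicle day 6, so nothing is read from these calls.

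In AR420626 cells Tigit was at 144 to 510 CPM at day 6, against 2.50 to 4.92 CPM at day 2, with ratios of 57.7 to 126 within mice. The log2 fold change of 6.09 (SE 0.77) rests on the day 6 libraries that were known when the genes were chosen and is given without a test. Cd47 was at 1495 to 2395 CPM at day 6 and at 30.3, 60.0, 24.3, 236 and 531 CPM in mice 1 to 5 at day 2, a log2 fold change of 4.32 (SE 1.30, adjusted p = 0.0453). Chromosome 16 took 3.02%, 2.91%, 2.79%, 6.13% and 7.88% of counts in these day 2 libraries, and 6.93% to 8.07% in AR420626 day 6 libraries. The part of that share in the Cd47 values was not tested. Cd47 lost the call without mouse 1, 2, 3 or 4 (adjusted p = 0.109 to 0.200) and kept it without mouse 5 (5.11, adjusted p = 0.00213). Cd80 was at 46.5 to 96.4 CPM at day 6 and 5.00 to 16.2 CPM at day 2, with no overlap, a log2 fold change of 2.26 (SE 0.42, adjusted p = 0.00599). Scaled on chromosome 16, where the median of the genes tested was -0.07, Cd80 changed by 1.04 (adjusted p = 0.172) and Cd47 by 3.05 (adjusted p = 0.02).

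Cd96, Btla, Nectin3 and Cd86 did not pass in AR420626 cells, with estimates of 1.16, 0.80, -0.87 and -0.47. Nectin3 passed as lower at day 6 when scaled on chromosome 16 genes (-2.10, adjusted p = 0.0171), with chromosome 16 genes tested alone (-2.10, adjusted p = 0.00981) and with genes of at least 10 counts in every library (-1.70, adjusted p = 0.00254). In the first of these settings 22.0% of all genes tested and 9.50% of those on chromosome 16 passed as lower. The shares were 9.86% with chromosome 16 genes alone, and 33.6% and 8.10% with at least 10 counts. Nectin3 also lay within the range of the silent chromosome 16 genes in AR420626 day 6, so nothing is read from its calls. Of the 6 genes other than Tigit 2 passed as higher at day 6, where 10.0% of all genes and 26.9% of chromosome 16 genes tested did. Without mouse 5, 5 of all 7 members passed, Tigit counted and Btla among them (1.73, adjusted p = 0.0394). The shares without it were 14.6% of all genes and 47.2% of chromosome 16 genes, so nothing is read from the count. At day 2 mouse 5 held 74.5 CPM of Btla with AR420626 and 220 CPM with vehicle, against 5.39 to 21.6 CPM in the other day 2 libraries.

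Among the 20 cultured libraries, the genes whose log2 CPM was most like that of Tigit were B630019A10Rik on chromosome 16 (Pearson r = 0.96), Ints3 (0.96), Ccbe1 (0.95), Tg (0.94) and Zfp503 (0.94), of 23140 genes ranked. Rows of the last 4 lie on chromosomes where counts did not follow the C57BL/6J levels of the named gene, so their names say little. On chromosome 16, of 729 ranked, the next were Sidt1 (r = 0.93), which encodes a transmembrane protein of the SID family, St6gal1 (0.90), a sialyltransferase, Tnp2 (0.89), a spermatid nuclear protein gene, and Runx1 (0.84), a transcription factor of blood cells. Runx1 averaged 620 ± 74.9 CPM in AR420626 day 6 and 213 ± 121 CPM in vehicle day 6, and Sidt1 141 ± 35.2 and 29.2 ± 2.16 CPM. Of the members, Cd96 had r = 0.76 and Cd47 0.74, Cd80 0.56, Btla 0.25, Cd86 -0.09 and Nectin3 -0.11. All these values were computed over libraries that share mice and depth, and the groups themselves set most of the likeness.

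Zbtb20, the nearest gene on 1 side of Tigit that passed the filter over the 20 cultured libraries, went the other way at day 6. It encodes a zinc finger repressor, its annotated end lies 6265 bases from Tigit, and it averaged 92.1 ± 10.2 CPM in AR420626 day 6 and 189 ± 39.1 CPM in vehicle day 6, a log2 fold change of -0.83 (SE 0.22, adjusted p = 0.0128). Drd3, a dopamine receptor gene 89880 bases away on the other side, was at 1.53 ± 2.10 and 2.25 ± 0.59 CPM and too low to be tested at day 6, so it has no direction here. Within 10 Mb on each side of Tigit, 101 other genes were tested and 30 passed, 6 higher and 24 lower with AR420626, with a median log2 fold change of -0.16. Among these Sidt1 reached 2.43, the highest of the 101, and Gap43 -5.18, the lowest. Cd200r3, a member of the CD200 receptor family that lies between Tigit and Btla, was at -4.68.

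**Figure D5:**
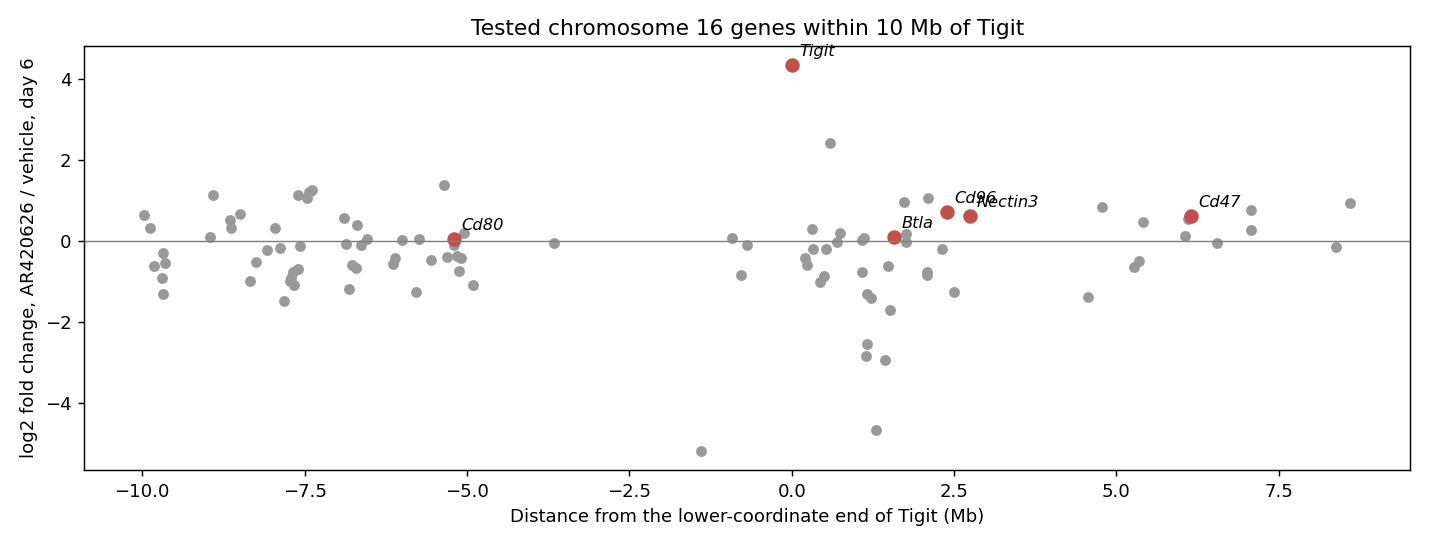
Log2 fold change of AR420626 over vehicle at day 6 (vertical axis) for each tested chromosome 16 gene within 10 Mb of Tigit, against distance in Mb (horizontal axis); the named genes are in red, other genes in grey. Tigit, chosen with this difference known, lies at 4.35, above all 101 others, whose median is -0.16.

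The ligands, receptors and signalling partners of the 7 genes, a list of 29 genes, all lie on other chromosomes, where rows did not follow the C57BL/6J levels of their genes, and the values are given as those of rows only. At day 6, 12 of the 29 were tested with AR420626 against vehicle and 2 passed, both lower: Cd274, the ligand of PD-1 (-1.26, SE 0.24, adjusted p = 0.000735), and Tnfrsf14, the BTLA ligand HVEM (-1.12, SE 0.24, adjusted p = 0.00225). Tnfrsf14 averaged 148 ± 49.9 CPM in AR420626 day 6 and 411 ± 303 CPM in vehicle day 6. Pvr, the main ligand of TIGIT, was at 15.8 ± 4.49 and 7.28 ± 7.28 CPM, with 10 to 21 counts in AR420626 libraries and 0 to 18 in vehicle libraries. At day 2, 0 of 27 tested passed in edgeR. From day 2 to day 6 under vehicle 3 of 26 rose (Tnfrsf14, Nectin2 and Cd274) and 1 fell (Ptpn11, the phosphatase SHP-2), and in AR420626 cells 1 of 19 rose, Tnfrsf14. Of all genes tested 13.0% rose under vehicle and 10.0% with AR420626, so these partner counts lie near or below the background, and the 2 of 12 lower at day 6 stand beside 11.1% of all genes. The median log2 fold change of the tested partners was 0.41 for AR420626 against vehicle at day 6 and -1.03 from day 2 to day 6 under vehicle.

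In naive CC030 all 7 genes had counts, while in naive C57BL/6J the levels of the 7 were far apart. In CC030, Tigit had 4, 1 and 7 counts, Cd47 95, 118 and 74, Cd96 57, 44 and 253, Nectin3 63, 52 and 78, Cd80 44, 60 and 51, Btla 36, 39 and 47 and Cd86 41, 44 and 36. In C57BL/6J, Cd47 had 4942, 7121 and 7059 counts and Cd96 1577, 1134 and 3590. Btla, Cd80 and Nectin3 had 0 counts in all 3 libraries, which allows up to 3 counts in each, and Cd86 had 2, 0 and 0. Tigit had 106, 0 and 0 counts in C57BL/6J, so a single library carried all of its signal. That library was also the only one of the 3 with Trat1, a T cell adaptor gene on chromosome 16 (19.7 CPM against 0 and 0), while the 9 T cell markers summed to 2657 CPM in it and to 3119 and 1632 CPM in the others; their part in the Tigit counts was not tested. Macrophage and dendritic cell markers summed to 19.5, 38.5 and 1581 CPM in C57BL/6J replicates 1 to 3, and replicate 3, the one with the highest sum, also had the most Cd96 counts; the part of such cells in the levels was not tested.

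Of the 7 genes, 4 were called higher in CC030 and 2 lower (edgeR, no block), but 64.1% of the 35551 genes tested were called higher and 12.2% lower, and on chromosome 16 59.9% and 12.2%. The count for the 7 therefore lies near the background and is not a result about them. Relative to 3 counts per C57BL/6J library, mean CPM in CC030 was at least 58.0-fold higher for Btla, 73.7-fold for Cd80 and 92.1-fold for Nectin3, and Cd86 was 265-fold higher (95% exact interval 71.8 to 2214, counting error only). Per exonic kilobase, however, Cd86, Cd80, Btla and Cd47 in CC030 lay between 5.05 and 6.99 CPM and Nectin3 at 2.30, where the 218 chromosome 16 genes silent in C57BL/6J had a median of 3.95 and a 90th percentile of 9.19.

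Cd96 was the exception among the 7 in naive CC030: at 24.0 CPM per kilobase it exceeded all 218 of those genes, although 1 of 3 libraries held 253 of its 354 counts. It was lower than in C57BL/6J, at 52.4 ± 49.6 CPM in CC030 and 208 ± 91.1 CPM in C57BL/6J (SD, n = 3 each), a log2 fold change of -1.99 (SE 0.72, adjusted p = 0.0347). The call was lost by DESeq2 (-1.35, adjusted p = 0.117) and without CC030 replicate 1 or 2 (adjusted p = 0.11 and 0.0984), while without CC030 replicate 3, the library with 253 counts, the difference was -3.14 (adjusted p = 0.0042). Without C57BL/6J replicate 3, where the macrophage and dendritic cell markers were high, it was -1.99 (adjusted p = 0.0377). Cd47 was at 43.9 ± 10.6 CPM in CC030 and 668 ± 122 CPM in C57BL/6J, a log2 fold change of -3.93 (SE 0.39, adjusted p = 0.00046). Tigit gave -1.20 (SE 1.94, adjusted p = 0.595). Rows of naive CC030 on chromosome 16 did not follow C57BL/6J levels (rho 0.07, with -0.17 around Cd96 and 0.01 around Cd47). In naive CC030, 46 of the 218 silent genes were at or above Cd47 per exonic kilobase. These strain differences are therefore given as those of rows only. Strain and alignment reference changed together, since each strain was aligned to its own reference, and their parts in these differences cannot be told apart.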

How the data were processed

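Both count tables were deposited as raw HTSeq read counts per Ensembl gene, not normalized. Per the authors' methods, SMART-Seq v4 libraries (no strand marked) were trimmed with fastp and aligned with STAR; C57BL/6J reads went to mm10, CC030 reads to a pseudogenome in mm9 coordinates and then by lapels to mm10 coordinates. The annotation behind the counts is unstated; names and exonic lengths come from GENCODE on GRCm38 (55141 of 55401 identifiers matched), promoter windows from RefSeq (6 of the 7 genes had one). The 5 summary rows of the cultured table stayed out of library sizes and tests.

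Counts were tested with edgeR 4.0.16 (R 4.3.3; quasi-likelihood, TMM, low genes removed by filterByExpr at 10 counts, total 15), Benjamini-Hochberg over all genes tested, calls at 0.05, with DESeq2 1.42.0 as an alternative. Cultured comparisons had mouse as a block, since each mouse's cells were split between the arms. Same-numbered libraries correlated at -0.33 to 0.35 in their deviations, and the best match of another number at -0.03 to 0.47. A library of another number was often the better match, so the block rests on the labels and the authors' methods. Strains had no block. Each table was normalized on its own and no test crosses tables. Every deposited sample column was used. The methods were tested on simulated data. Per the authors' methods, naive cells of each mouse were sorted on their own, so each naive library stands for 1 mouse.

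The members and lists were chosen with earlier results of these data known. The text names all 7 genes in every comparison, up to 4 partners per comparison, the 5 genes most like Tigit (all and chromosome 16) and its nearest tested neighbours; Gap43, Cd200r3 and Pvr were added after their values were seen or as needed ligands. Alternatives were other scalings, filters, blocks, pseudocounts and leaving out each replicate; leaving out mice 4 and 5 together was chosen after seeing the data. Intervals and floors cover counting error only.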

Additional observations from a re-analysis of the deposited data

Results flagged for a closer look

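A library stood far from the other 4 of its group in 8 of the 28 combinations of gene and cultured group checked, where chance flags about 1 in 20. In vehicle day 6, mouse 4 was high for Btla (124 CPM), Cd80 (226 CPM) and Cd47 (4220.0 CPM). In vehicle day 2, mouse 5 was high for Btla (220 CPM), Cd80 (128 CPM) and Cd47 (698 CPM). In AR420626 day 2, mouse 5 was high for Btla (74.5 CPM) and Cd96 (48.3 CPM). The vehicle day 2 library of mouse 5 was the deepest of the cultured set, at 5320028 counts, and its markers summed to 497 CPM for ILC2s, 364 CPM for T cells and 530 CPM for macrophages and dendritic cells, against 110 to 134, 60.5 to 117 and 94.5 to 108 CPM in the other vehicle day 2 libraries. The vehicle day 6 library of mouse 4 held 3420893 counts, against 1143405 to 1886141 in the others. In the AR420626 day 2 library of mouse 5, chromosome 16 took 7.88% of counts, against 2.79% to 6.13% in the others of that group. The parts of depth, of other cells and of this share in these values were not tested.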

How the results depend on the processing

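Tigit kept its direction with AR420626 at day 6 under every alternative that could fit it, which stays a description because that difference was known. The 0 calls at day 2 were 0 under all. Counts of the 7 genes called moved as follows. Tigit is counted in them wherever it passed, although its day 6 values carry no test. For AR420626 against vehicle at day 6 the count was 1, and 2 by DESeq2 or with libraries scaled on chromosome 16, 3 with chromosome 16 genes alone, and 1 to 2 with a replicate left out. It was 1 of 4 tested with at least 10 counts in every library, where Cd47 passed and Tigit was not tested. Of all genes tested 3.76% passed as higher by DESeq2 and 6.44% with chromosome 16 scaling. The shares were 14.3% with chromosome 16 genes alone and 11.2% with at least 10 counts. For the day 6 effect minus that at day 2 the count was 0. It was 1, Tigit each time, by DESeq2, with chromosome 16 scaling, with chromosome 16 genes alone or with mice 4 and 5 left out. With a replicate left out it was 0 to 1. By DESeq2 0.212% of genes tested passed as higher, with chromosome 16 scaling 0.0821%, with chromosome 16 genes alone 0.822% and without mice 4 and 5 0.174%. For vehicle day 6 against day 2 it was 2, both higher, and 1 higher with DESeq2 size factors, with no filter or with no replicate block, 1 lower with chromosome 16 genes alone, 1 higher and 2 lower with chromosome 16 scaling, 1 higher and 1 lower with at least 10 counts in every library, and 0 to 5 with a replicate left out. Of all genes tested 6.87% passed as higher and 48.3% as lower with chromosome 16 scaling. With at least 10 counts 23.0% and 29.6% did, and 4 of the 7 members were tested. With chromosome 16 genes alone 21.9% passed as lower, and without mouse 5 21.6% of all genes passed as higher. For AR420626 day 6 against day 2 it was 3, all higher, and 2 higher and 1 lower with either use of chromosome 16, 1 higher and 1 lower with at least 10 counts, 2 with no replicate block, 5 without mice 4 and 5, and 2 to 5 with a replicate left out. Of all genes tested 5.49% passed as higher and 22.0% as lower with chromosome 16 scaling. With chromosome 16 genes alone 15.6% and 9.86% did. With at least 10 counts 28.8% and 33.6% did, and 3 of the 7 members were tested. Without mice 4 and 5 14.0% of all genes and 44.4% of those on chromosome 16 passed as higher. For the strains it was 6, 4 higher and 2 lower, and 1 lower with at least 10 counts in every library. In that last setting 2 of the 7 members were tested, and 18.4% of all genes tested passed as higher and 29.8% as lower. Nothing about the 7 genes is read from these counts. The position check for vehicle day 6 gave 0.76, and 0.68 over genes of at least 1 CPM.

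Signs turned only for values not called on either side. For AR420626 against vehicle at day 6, Btla gave -2.9e-05 with no filter and -0.14 with no replicate block, and Cd80 -0.063 and -0.079. Leaving out a replicate gave -0.11 to 0.70 for Btla and -0.11 to 0.44 for Cd80. At day 2 Cd86 gave 0.049 with chromosome 16 scaling, 0.050 with chromosome 16 genes alone and 0.10 with no replicate block, and leaving out a replicate gave -0.57 to 0.35 for Cd86, -0.66 to 0.10 for Btla and -0.057 to 0.61 for Cd96. For the effect at day 6 minus that at day 2, Cd96 gave 0.81 with either use of chromosome 16 and 0.83 without mice 4 and 5, Nectin3 0.57 with either use and 0.43 with at least 10 counts in every library, and leaving out a replicate gave -0.62 to 0.36 for Cd96 and -0.31 to 1.53 for Btla. For vehicle day 6 against day 2, either use of chromosome 16 gave -0.61 for Cd96, -0.88 for Btla and -0.31 for Cd80, and Btla was -0.24 with at least 10 counts in every library and -0.36 with no replicate block. For AR420626 day 6 against day 2, chromosome 16 scaling gave -0.066 and chromosome 16 genes alone -0.068 for Cd96, either gave -0.51 for Btla, Btla was -0.11 with at least 10 counts, and Cd86 was 0.055 without mice 4 and 5 and -0.55 to 0.023 with a replicate left out. The strain difference of Tigit was 2.67 with a replicate block (adjusted p = 0.381). At day 2 the ratio of Tigit to Cd96 differed by -0.0079 with a pseudocount of 1 and by -0.29 to 0.31 with a mouse left out, and that of Cd86 to Cd80 by -0.025 to 1.81. The causes were not tested. Dropping the replicate block changed no other count of the 7 genes beyond 1.5 times, and naive replicate numbers, whose same-number correlations were -0.01 to 0.00, do not pair the strains. At day 2 counts of 2 to 16 limit what could be seen for Tigit.

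Over all genes, scaling on chromosome 16 gave 607 higher and 339 lower calls in place of 265 and 1049 for AR420626 against vehicle at day 6, 1086 and 7634 in place of 2064 and 996 for vehicle day 6 against day 2, and 808 and 3248 in place of 1479 and 168 for AR420626 day 6 against day 2. DESeq2 called 2806 genes in place of 1647 in the last of these. With no replicate block, 2 genes passed in place of 12 for the effect at day 6 minus that at day 2, 1354 in place of 2064 were higher for vehicle day 6 against day 2, and 351 in place of 168 were lower for AR420626 day 6 against day 2. Without mice 4 and 5 the totals were 352 in place of 1314, 4330 in place of 3060 and 3454 in place of 1647.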
